A study of Bos taurus with 16 samples.

Results

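The genes described here encode the translation initiation and elongation factors of cattle, read in whole blood RNA. They were chosen by name: every probe whose gene symbol in the deposited table starts with EIF1 to EIF6 or with EEF1 or EEF2 was taken, without the EIF2AK kinases. That gave 163 of 43653 probes, for 58 of 16966 genes with a symbol. Per gene there were between 1 and 9 probes, and 10 genes had 1. A pair of the symbols, EIF2C1 and EIF2C2, are old names of the Argonaute genes AGO1 and AGO2, which act in RNA silencing and match the rule by name only.

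Blood of lactating Holstein Friesian cows was hybridised to single-colour (Cy3) oligonucleotide arrays, 16 in all and 4 per group. The LPS group was blood of probiotic-fed cows at day 60, treated ex vivo with lipopolysaccharide, a component of bacterial cell walls, at 100 ng/ml. The probiotic group was the same arm at day 60 without LPS, after daily oral feeding of a commercial pack of yeast, Enterococcus, Lactobacillus, Bacillus and Aspergillus products, and the untreated group was the water-fed arm at day 60. The day 0 group was blood drawn before feeding began; per the labels it belongs to the probiotic arm, and whether it also holds cows of the untreated arm is not stated in the sources used here. Each arm had 5 cows. All blood stood for 30 min at 37 °C under 5% CO2, red and white cells were lysed differentially, and the RNA of a group's cows was pooled. The 4 arrays of a group are therefore repeat hybridisations of pooled RNA, so every p-value below reflects how far arrays differed and carries no information on the spread among animals. A group filled 1 slide, and group and slide cannot be told apart; the LPS and probiotic slides shared 1 of 3 scan days. In blood RNA, fewer cells of a type and less of an RNA per cell cannot be told apart.

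Translation starts when eIF2 brings the initiator transfer RNA to the small ribosomal subunit, with eIF1, eIF1A, eIF3 and eIF5 bound, and when eIF4E, eIF4G, eIF4A and eIF4B recruit the capped messenger RNA. The eIF5B factor then joins the large subunit. During elongation eEF1A carries each aminoacyl transfer RNA to the ribosome, the eEF1B complex (EEF1B2, EEF1D, EEF1G) recharges eEF1A, and eEF2 drives translocation. Messenger RNAs of these factors are abundant in most cells, white blood cells included.

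The arrays did not carry signal evenly, and this bears on every value below. Around each spot, the share of other spots within 500 µm that the scanner software called well above background was computed, with a median of 158 neighbours. A spot was said to lie in a bright area where that share was at least 50% of the array's 95th percentile. This cut-off came to a share of 26.9% to 35.2% on the LPS arrays and 32.4% to 33.9% on the probiotic arrays. It was 12.5% to 25.9% on the untreated and 13.1% to 24.6% on the day 0 arrays. A bright area therefore does not stand for the same local detection on each array. LPS arrays 1 to 3, all probiotic arrays and day 0 arrays 1 to 3 had a bright rim around an oval interior with few detected spots, in places crossed by a brighter band. LPS array 4 and day 0 array 4 were dim over most of their surface, and the untreated arrays were dim except for narrow bands. Over all spots, between 22.5% and 42.1% were well above background on the LPS arrays, 26.4% to 37.1% on the probiotic, 12% to 17.9% on the untreated and 8.26% to 23.0% on the day 0 arrays. Copies of 1 spiked control probe read a median of 134396 to 153200 scanner units in bright areas of the probiotic arrays and 5.00 to 27.98 units elsewhere on them. Of 31 blood cell marker genes on the array, 19 were well above background on all LPS arrays, 22 on all probiotic, 9 on all untreated and 17 on all day 0 arrays. The leukocyte marker CORO1A, the neutrophil marker S100A8, the killer cell marker PRF1, the platelet marker PF4 and the erythroid genes HBA, ALAS2 and SLC4A1 were not well above background on every array of any group.

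**Figure D1:**
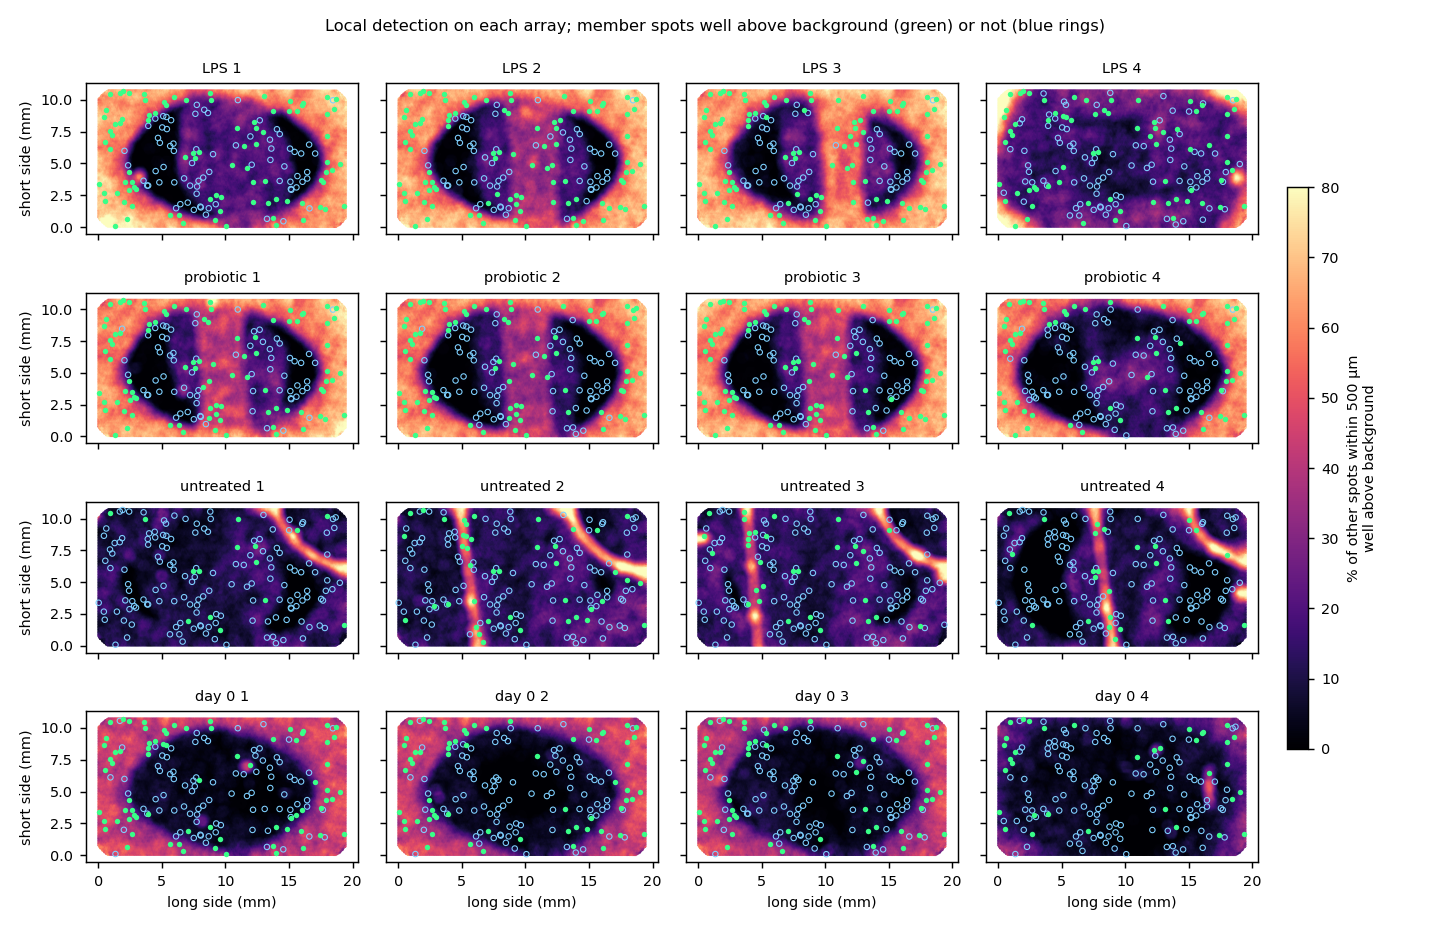
Maps of the 16 arrays. Colour gives the percentage of other spots within 500 µm of each place that were well above background, on axes in mm; green points are spots of translation factor probes that were well above background and blue rings those that were not. The green points crowd the bright rim on the LPS, probiotic and day 0 arrays and the narrow bands on the untreated arrays.

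The factor probes followed this pattern. In bright areas, 84.3% to 94.7% of member spots were well above background on the probiotic arrays and 80% to 96.6% on the LPS arrays. Outside them the shares were 17.98% to 24.4% on the probiotic and 22.4% to 36.1% on the LPS arrays. On the untreated arrays the shares were 15.2% to 66.7% inside and 6.84% to 20.3% outside, and on the day 0 arrays 62.5% to 80.6% inside and 11.45% to 18.7% outside. No factor probe lay in a bright area on all 16 arrays, and 34 of the 163 lay in one on none.

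Some genes have several probes with overlapping sequence. EEF1G, the gamma subunit of the eEF1B complex, has a pair of probes that share 43 of their 60 bases, and EEF1A1 a pair that share 26. They are printed with the shared bases in capitals because probes of these genes passed in opposite directions further on, and the EIF3G probe because its gene is followed below. Outside the shared stretch the probes of a pair read different bases. The sequences are those of the deposited table, 5′ to 3′.
EEF1G, row 491: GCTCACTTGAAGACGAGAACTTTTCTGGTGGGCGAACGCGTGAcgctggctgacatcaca
EEF1G, row 208: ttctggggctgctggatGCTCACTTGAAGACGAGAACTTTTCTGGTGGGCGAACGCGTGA
EEF1A1, row 26: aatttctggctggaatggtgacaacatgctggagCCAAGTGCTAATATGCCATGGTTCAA
EEF1A1, row 426: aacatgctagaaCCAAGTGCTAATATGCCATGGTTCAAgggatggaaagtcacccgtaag
EIF3G, row 155: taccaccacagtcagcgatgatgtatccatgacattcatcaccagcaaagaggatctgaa

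The EEF1G probe at row 491 lay in a bright area on all probiotic arrays and read 14182, 13515, 13594 and 11785 scanner units there. The EEF1G probe at row 208 lay in a bright area on none of them and read 60.9, 59.5, 62.2 and 90.1 units. The EEF1A1 probe at row 26 lay in a bright area on all 4 probiotic arrays and read 29040, 28146, 27137 and 22699 units, and the one at row 426, in a bright area on none, read 13.0, 12.4, 9.4 and 6.40 units. In all, 16 pairs of member probes, in 12 genes, share at least 15 bases in a row, and they did not all look like these. In EEF1D, the probe at row 78, in a bright area on no probiotic array, read 11154, 5056, 7309 and 3.3 units on the probiotic arrays, and the one at row 287, in a bright area on 3, read 6052, 4730, 5915 and 9.3 units. In EIF2S1, the alpha subunit of eIF2, both probes lay in a bright area on all probiotic arrays and read 791, 811, 798 and 733 units at row 63 and 299.5, 32.9, 69.7 and 17.4 units at row 382. Levels of different probes are not compared here, since probes differ in their own response, and the part of place in these readings was not tested. EEF1A1 has many near-identical genomic copies, so its probes may read more than 1 transcript.

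A probe can also be compared with itself on repeat arrays of 1 pool. On the LPS arrays 70 factor probes lay in a bright area on some arrays and outside on others, and 69 of them had the higher median signal on the bright ones. The counts were 29 of 34 probes on the probiotic, 63 of 83 on the untreated and 51 of 56 on the day 0 arrays, so 5, 20 and 5 probes went the other way. A bright area is itself defined by detection of the neighbouring spots on the same array. EIF2S2, the beta subunit of eIF2, read -19.8, -7.40 and -8.70 units on untreated arrays 1 to 3 and 2840 on array 4, and its spot lay in a bright area on arrays 3 and 4. EEF2 read 116, 116 and 83.9 units on untreated arrays 1 to 3 and 11183 on array 4. EEF1A1, by its brightest probe, read 189, 552 and 131 units on untreated arrays 1, 2 and 4 and 14007 on array 3. In all 3 genes the 1 high array was among those where the spot lay in a bright area, but the EIF2S2 spot on array 3 and the EEF2 spot on arrays 1 and 3 were also counted as bright and read low. The share of detected neighbours around the high spots was 51.2%, 59.1% and 46.6%, each the highest of the 4 arrays.

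**Figure D2:**
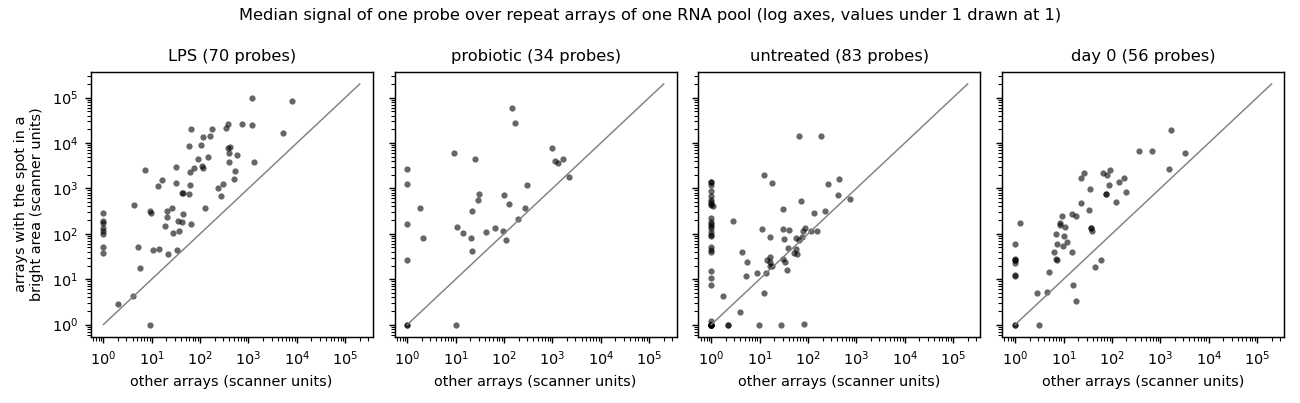
Each point is 1 factor probe in 1 group, for the 70 LPS, 34 probiotic, 83 untreated and 56 day 0 probes that lay in a bright area on some arrays and not on others. The vertical axis is its median signal on the arrays where it lay in a bright area and the horizontal axis its median on the others, both in scanner units on log scales; 69 of the 70 LPS points lie above the line of equality.

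For the comparisons, the signal after background subtraction was divided by each array's 75th percentile over the 672 probes well above background on every array, floored and taken as log2. Probes entered the fit where every array of some group had them well above background, and the brightest such probe stood for its gene. That kept 73 of the 163 factor probes and 42 of the 58 genes. The 16 genes not kept were EEF1A2, EEF2K, EIF1AX, EIF1AY, EIF2B1, EIF2B2, EIF2C1, EIF2C2, EIF2D, EIF2S3, EIF2S3Y, EIF3L, EIF4A1, EIF4E1B, EIF4E3 and EIF4G1, with 31 probes between them. Of those 31 probes, 2 lay in a bright area on all of the 10 arrays that had a broad bright area, so for most of the 16 genes low RNA and an unlit spot cannot be told apart. To pass, a gene needed a fold of at least 2 and an adjusted p under 0.05 (limma, Benjamini-Hochberg over all 12214 kept probes).

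**Figure D3:**
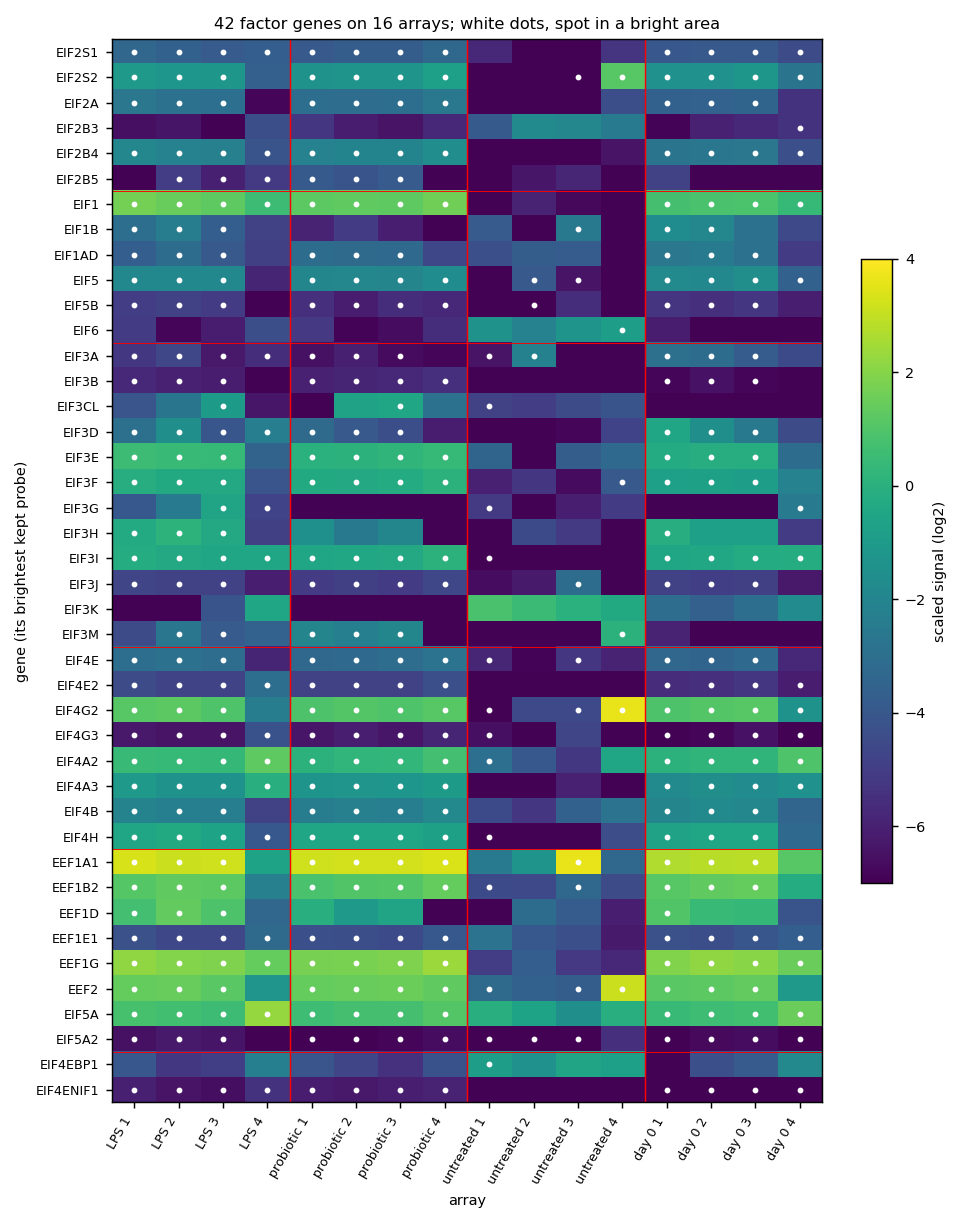
Scaled log2 signal of the 42 kept translation factor genes, each by its brightest kept probe, on the 4 LPS, 4 probiotic, 4 untreated and 4 day 0 arrays, from left to right. White dots mark spots in a bright area and red lines divide groups of arrays and roles of genes. The EIF1, EEF1A1, EEF1G, EEF2 and EIF5A rows are bright on the probiotic arrays, and most untreated cells lack a dot.

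The first comparison sets the probiotic pool against the untreated pool, both at day 60. Of the 42 factor genes, 23 were higher and 4 lower in the probiotic pool. Over all 7311 genes tested, 34.4% were higher and 29.2% lower. The median difference was 2.09 on the log2 scale for the factors and 0.35 for all genes. Of the 23 higher genes, 12 were read by a probe that was well above background on no untreated array. For EIF2B5, EIF3B and EIF4E2 among them, the probiotic mean did not exceed the mean untreated detection limit. These calls therefore depend on the floor, and no bound on their fold is given. All 23 genes that were higher were read by a probe that lay in a bright area on more probiotic than untreated arrays, 11 of them on 4 against 0; among all 2512 higher genes this held for 2490. More bright arrays in the probiotic group were also common among the genes that were lower: of all 2133, 1208 had more, 504 fewer and 421 as many. Of the 4 lower factor genes, 2 had fewer and 2 as many. No factor probe lay in a bright area on all 8 arrays of this comparison, so the part of place in these calls was not tested.

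The eIF2 and eIF2B genes, which deliver and recharge the initiator complex, were counted together with EIF2A, a subunit of neither. Of these 6 measured genes, 5 were higher, EIF2A among them, and 1 was lower. EIF2S2 read 4657, 4358, 4394 and 4051 units on the probiotic arrays, against the untreated values given above, and the fitted log2 difference was 3.71 ± 1.41 (SE, adjusted p = 0.033, limma). Its untreated arrays did not agree among themselves, since array 4 alone was well above background. The call was lost without any 1 of the other 7 arrays (adjusted p = 0.056 to 0.098), and without array 4 the difference was 5.73. EIF2B4, the delta subunit of the exchange factor eIF2B, was dim on all untreated arrays and was at least 3.85-fold higher (adjusted p = 8.3e-07). EIF2B3, the gamma subunit, was lower, with a log2 difference of -3.39 ± 0.58 (adjusted p = 0.00017). In scanner units the ranges of this EIF2B3 probe overlapped between the groups, so its fall depends on the scaling. The other kept EIF2B3 probes did not pass (adjusted p = 0.057 and 0.26, limma).

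Among factors of start codon selection and subunit joining, 2 of 6 were higher and 1 lower. EIF1, which guards the fidelity of start codon choice, read 28220, 27449, 25861 and 21908 units on the probiotic arrays, against -9.70, 22.7, 10.4 and -4.60 on the untreated arrays. The groups did not overlap, and the probe was at least 38.4-fold higher (adjusted p = 6.1e-11). Its spot lay in a bright area on 4 probiotic and 0 untreated arrays. EIF6, which keeps ribosomal subunits apart, read 327, 92.4, 107 and 153 units on the probiotic arrays and 409, 312, 458 and 712 on the untreated arrays, and its scaled log2 difference was -4.65 ± 0.52 (adjusted p = 3.0e-06). In scanner units the ranges overlapped; the scale factors were 7109 to 11894 units on the probiotic arrays and 1074 to 1378 on the untreated arrays.

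The eIF3 complex, the scaffold on the small subunit, had 4 of 12 measured genes higher, 1 lower and 7 that did not pass. EIF3I, a core subunit, read 8529, 7888, 8254 and 7400 units on the probiotic arrays, against 1.2, 0.80, 0.10 and -4.70 on the untreated arrays, and was at least 11.9-fold higher (adjusted p = 2.1e-11). EIF3K, a small peripheral subunit, went the other way at 7.00, 8.4, 6 and -0.20 units on the probiotic arrays, against 1920, 1936, 1130 and 1035 on the untreated arrays. It was at least 145-fold lower in the probiotic pool (adjusted p = 4.0e-05), and its spot lay in a bright area on none of the 8 arrays. Another EIF3K probe, at row 355 and in a bright area on all probiotic arrays, read 82.4, 93.1, 89.0 and 69.3 units there, against -22.7, 24.6, -7.10 and -11.9 on the untreated arrays, none of them well above background. A probe at row 382 that shares 54 bases with the first read 1173, 13.3, 17.3 and 80.8 units on the probiotic arrays, against -42.1, 642, 183 and 38.8 on the untreated arrays, and the groups overlapped.

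Of the eIF4 cap-binding, scaffold and helicase genes, 7 of 8 were higher and none lower. EIF4E, which binds the cap, read 1172, 1141, 1292 and 1010 units on the probiotic arrays, against 18.9, 11.7, 29.3 and 20.8 on the untreated arrays, and was at least 1.71-fold higher (adjusted p = 0.0020). The cap helicase EIF4A2 read 12475, 12836, 13040 and 11601 units on the probiotic arrays, against 135, 87.6, 30.0 and 894 on the untreated ones (log2 difference 3.499 ± 0.71, adjusted p = 0.00064). The groups did not overlap for either gene. EIF4H, a cofactor of that helicase, was at least 9.93-fold higher (adjusted p = 4.4e-05) and EIF4A3, the helicase of the exon junction complex, at least 6.48-fold (adjusted p = 2.4e-09). EIF4B lost its call without untreated array 1 (adjusted p = 0.050) or 2 (0.064), and its difference was -0.52 under cyclic loess.

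Among elongation factors 5 of 8 were higher and none lower. EEF1G, by its brightest probe, read 39519, 37929, 39090 and 36410 units on the probiotic arrays and 33.7, 105, 31.0 and 23.8 on the untreated arrays, a log2 difference of 6.85 ± 0.37 (adjusted p = 1.7e-09). EEF1B2, the exchange subunit for eEF1A, read 21235, 21761, 22103 and 18801 units on the probiotic arrays, against 47.1, 58.5, 114 and 56.3 on the untreated ones (5.29 ± 0.67, adjusted p = 9.8e-06). EIF5A, which eases elongation through difficult peptide bonds, was the 1 gene well above background on all 16 arrays besides EEF1A1. It read 17569, 18216, 17902 and 14846 units on the probiotic arrays and 1017, 890, 391 and 1198 on the untreated arrays, and after scaling it differed by 1.36 ± 0.41 (adjusted p = 0.011). Under cyclic loess that difference was -2.05, so its direction depends on the scaling. EEF2 was higher by 3.27 ± 1.24 (adjusted p = 0.033), but not without any 1 of 7 of the 8 arrays (adjusted p = 0.056 to 0.098). Its difference was 4.93 without untreated array 4, the 1 array whose loss left the call, and -0.07 under cyclic loess. Of the 2 kept genes in the remaining group, EIF4EBP1, which binds and blocks eIF4E, was lower at -3.69 ± 0.86 (adjusted p = 0.0019) and EIF4ENIF1 did not pass. In scanner units the EIF4EBP1 ranges overlapped, as for EIF6. The other kept EIF4EBP1 probe did not pass (-0.91 ± 0.97, adjusted p = 0.42, limma).

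Probes of 1 gene passed in opposite directions in 5 of the 19 genes with several kept probes: EEF1A1, EEF1G, EIF1, EIF2B4 and EIF4H. The EEF1G probe at row 491 was 6.96 ± 0.76 higher on the log2 scale and the one at row 208, with 43 bases in common, was lower at -3.07 ± 0.36 (adjusted p = 2.4e-06 and 4.8e-06). The probe at row 208 was well above background on only 1 untreated array. In scanner units its ranges in the groups overlapped, so its fall depends on the scaling. The EEF1A1 probe at row 26 was 7.998 ± 0.53 higher and a further probe at row 205 was lower at -4.47 ± 0.50. In these pairs the probe that was higher lay in a bright area on all probiotic arrays and the one that was lower on none. Other opposed probes did not divide so: the lower EIF4H probe (-1.45 ± 0.61) lay in a bright area on 4 probiotic and 3 untreated arrays, the lower EIF2B4 probe (-3.99 ± 0.64) on 3 and 1, and a further EEF1G probe that was higher (4.57 ± 0.87) on 2 and 0. The split between higher and lower also moved with background handling: with normexp correction 14 factor genes were higher and 14 lower. The median over all genes ran from -1.26 under normexp to 1.49 under median scaling, against 0.35 here.

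**Figure D4:**
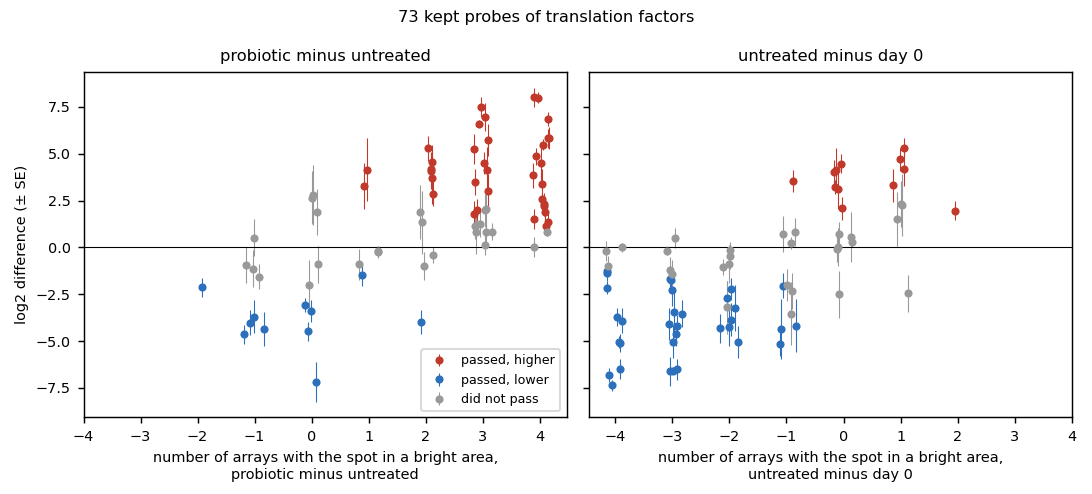
Log2 difference (± SE) of the 73 kept factor probes, probiotic minus untreated (left) and untreated minus day 0 (right), against the difference between the groups in the number of arrays, of 4, on which the spot lay in a bright area. Points are spread sideways for legibility. Of the 38 probes with at least 3 more bright arrays in the probiotic group, 28 passed as higher and 0 as lower, and of the 17 with 1 or 2 more, 8 as higher and 2 as lower. Of the 9 with equal numbers 0 passed as higher and 4 as lower, and of the 9 with fewer 0 as higher and 5 as lower. Among these 5, an EIF3CL probe was well above background on no array of either group. Among all 12214 probes, 32.9% passed as higher and 28.5% as lower.

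Untreated cows at day 60 against day 0 shares the untreated arrays with the comparison above. Here 4 factor genes were higher and 21 lower in the untreated pool, where 29.5% of all genes were higher and 24.0% lower. The medians were -2.09 for the factors and 0.08 for all genes. Every one of the 21 lower genes was read by a probe that lay in a bright area on fewer untreated than day 0 arrays, as were 1705 of all 1755 lower genes. Of the 21, 12 were read by a probe that was well above background on no array of 1 of the groups. Of all 2157 higher genes, 887 were likewise read in a bright area on fewer untreated arrays and 608 on more. No factor probe lay in a bright area on all 8 arrays. By the fitted difference, which for dim probes depends on the floor, the 6 largest falls were in EIF1 (at least 24.4-fold lower), EEF1G (-6.82 ± 0.37), EIF3I (at least 11.7-fold lower), EEF1B2 (-5.14 ± 0.67), EIF4H (at least 6.36-fold lower) and EIF4A3 (at least 4.82-fold lower), all with adjusted p at or under 0.00015. The 4 higher genes were EIF6 (5.32 ± 0.52), EIF2B3 (3.52 ± 0.58), EIF4EBP1 (3.30 ± 0.86) and EIF3K (3.11 ± 1.06), with adjusted p between 8.1e-07 and 0.023. EIF3K lost its call (adjusted p = 0.056) without untreated array 1, and likewise without day 0 array 1 (0.0504) or day 0 array 2 (0.062). With the software's processed signal EIF2B3 was at -0.06 and EIF4EBP1 at -1.20, so the direction of both depends on background handling. Among the lower genes, leaving out 1 array took the call from EIF4E (4 of the 8 arrays), EIF4B (5), EEF1D (5) and EEF1A1 (6), with adjusted p of 0.055 to 0.116.

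In probiotic at day 60 against day 0, 38 of the 73 factor probes lay in a bright area on as many arrays of both groups, 26 on more probiotic arrays and 9 on fewer. None of the 42 factor genes was higher and 2 were lower, beside 5.61% higher and 1.08% lower among all genes, where 205 of the 410 higher genes had more bright probiotic arrays; the medians were 0.37 and 0.49. The 2 were EIF3K, dim on all probiotic arrays and at least 16.8-fold lower (adjusted p = 0.032), and EIF3A, the largest eIF3 subunit. EIF3A read 131, 166, 105 and 63.7 units on the probiotic arrays and 394, 328, 184 and 34.1 on the day 0 arrays, so the groups overlapped, and its scaled log2 difference was -2.92 ± 0.84 (adjusted p = 0.048). Leaving out any 1 of the 8 arrays took both calls away, with adjusted p of 0.058 to 0.083 for EIF3K and 0.062 to 0.118 for EIF3A. Other scalings changed the split to 1 higher and 4 lower (quantile) or 6 higher and 1 lower (median), and the software's spatially detrended signal to 14 higher and 8 lower.

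To compare spots in bright areas only, the fit was repeated on 15261 probes, scaled on those spots. They lay in a bright area on each of LPS arrays 1 to 3, all probiotic arrays and day 0 arrays 1 to 3. This fit was chosen after the data were seen. Its cut-off was 23.4% to 24.6% on the day 0 arrays and 32.4% to 35.2% on the others, so local detection was not held equal. Among the 15261 probes were 50 factor probes for 34 genes, of which 47 probes and 32 genes were kept. Of the 50 probes, 36 were well above background on all 10 arrays, against 10 of the 113 factor probes that did not lie in a bright area on all 10. Within this area the arrays of a pool repeated closely. The median SD of a factor probe on the log2 scale was 0.09 over 3 LPS arrays, 0.09 over 4 probiotic arrays and 0.07 over 3 day 0 arrays. In simulated data the spread was that of the 9246 probes kept in this fit (median SD 0.14), not that of the factor probes alone. There, 94.0% of probes changed by 1.5 on the log2 scale were called for probiotic against day 0. With the spread of the fit over all spots (median SD 0.84), 29.9% were called.

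In bright areas, probiotic against day 0 left no factor gene higher and 1 lower by at least 2-fold, EIF3A. Of all 5932 genes, 5.21% were higher and 6.66% lower. This EIF3A probe, another than the one above, had scaled log2 values of -2.86, -2.88, -2.92 and -2.58 on the probiotic arrays and -1.53, -1.60 and -1.51 on the day 0 arrays. The groups did not overlap and the difference was -1.26 ± 0.23 (adjusted p = 0.0015, limma), a fold of 0.416. In the fit over all spots the same probe did not pass (-0.26 ± 0.59, adjusted p = 0.84, limma). With no demand on size, 8 factor genes were higher and 15 lower at an adjusted p under 0.05, and 34.4% and 24.2% of all genes. The median of the 32 was -0.18, and that of all genes 0.07.

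Smaller differences ran through each role. Of the 8 elongation factor genes, 5 were lower and 1 higher at that p, led by EEF1B2, with scaled log2 values of 3.05, 3.12, 3.14 and 3.26 on the probiotic arrays and 3.67, 3.73 and 3.78 on the day 0 arrays (-0.58 ± 0.08, adjusted p = 0.00033). EEF1G differed by -0.49 ± 0.09 and EEF1E1, which docks on the multisynthetase complex, by -0.41 ± 0.10, while EEF1D was higher by 0.21 ± 0.05. Of the 8 eIF4 genes, 4 were lower and 1 higher: EIF4B, which helps eIF4A unwind, at -0.12, -0.11, -0.18 and 0.04 on the probiotic arrays and 0.50, 0.63 and 0.46 on the day 0 arrays, differed by -0.62 ± 0.07 (adjusted p = 9.2e-05). EIF4E2, a cap-binding relative of eIF4E, was higher by 0.39 ± 0.10.

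EIF5, the activator of eIF2's GTPase, was lower by both of its probes, at -0.53 ± 0.07 and -0.50 ± 0.06, and EIF5B by -0.76 ± 0.17. In the eIF3 complex 3 genes were higher and 3 lower, EIF3F at 0.22 ± 0.06 among the higher, EIF3A, EIF3J and EIF3I the lower. The other higher eIF3 genes, EIF3K by its probe at row 355 and EIF3B, and also EIF4ENIF1, were not well above background on any day 0 array, so the size of their difference is not given. They make up 3 of the 8 higher genes, and EIF5A2, 1 of the 15 lower genes, was not well above background on any day 0 array either. EIF2B4 was higher by 0.36 ± 0.06 and EIF2S2 lower at -0.21 ± 0.08.

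Probes of 1 gene did not always move together even here. Of 13 genes with several bright probes, 4 had probes on both sides of 0 that each had an adjusted p under 0.05: EEF1D, EIF4A2, EIF4G2 and EIF4H. The EEF1D probe that was lower and the EIF4H probe that was higher were well above background on no day 0 array in this fit. The EIF4A2 and EIF4G2 probes were well above background on all arrays of both groups. EIF4G2, a scaffold relative of eIF4G that lacks cap binding, had probes at -0.79 ± 0.07, -0.39 ± 0.07 and 0.45 ± 0.07. EEF1A1 had 1 probe higher by 0.83 ± 0.05, while its brightest did not pass, and EIF1 had 1 at -0.79 ± 0.27 beside 1 at 0.17 that did not pass. Which transcript form each probe reads was not tested. Probiotic and day 0 arrays were scanned on different days, a difference that lies along the group difference.

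The other translation genes, from a list of 46 partners such as poly(A)-binding proteins, release factors and eIF2 kinases, had 28 measured in this area. None was higher by at least 2-fold and 1 was lower, PABPC1, the poly(A)-binding protein that closes the messenger loop, at -1.07 ± 0.26 (adjusted p = 0.0062). At an adjusted p under 0.05 alone, 11 were higher and 6 lower, against the 34.4% and 24.2% of all genes given above, with a median of 0.16. TPT1, a growth-linked protein, differed by -0.90 ± 0.07 and GSPT2, a release factor GTPase, by -0.99 ± 0.08, while the eIF2 kinase EIF2AK2 was higher by 0.50 ± 0.09. Of 21 blood cell markers measured there, 1 passed as higher, the neutrophil receptor CXCR2 at 1.19 ± 0.09, none as lower, and the range was -0.97 to 1.19. The part of cell composition in the factor differences was not tested.

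**Figure D5:**
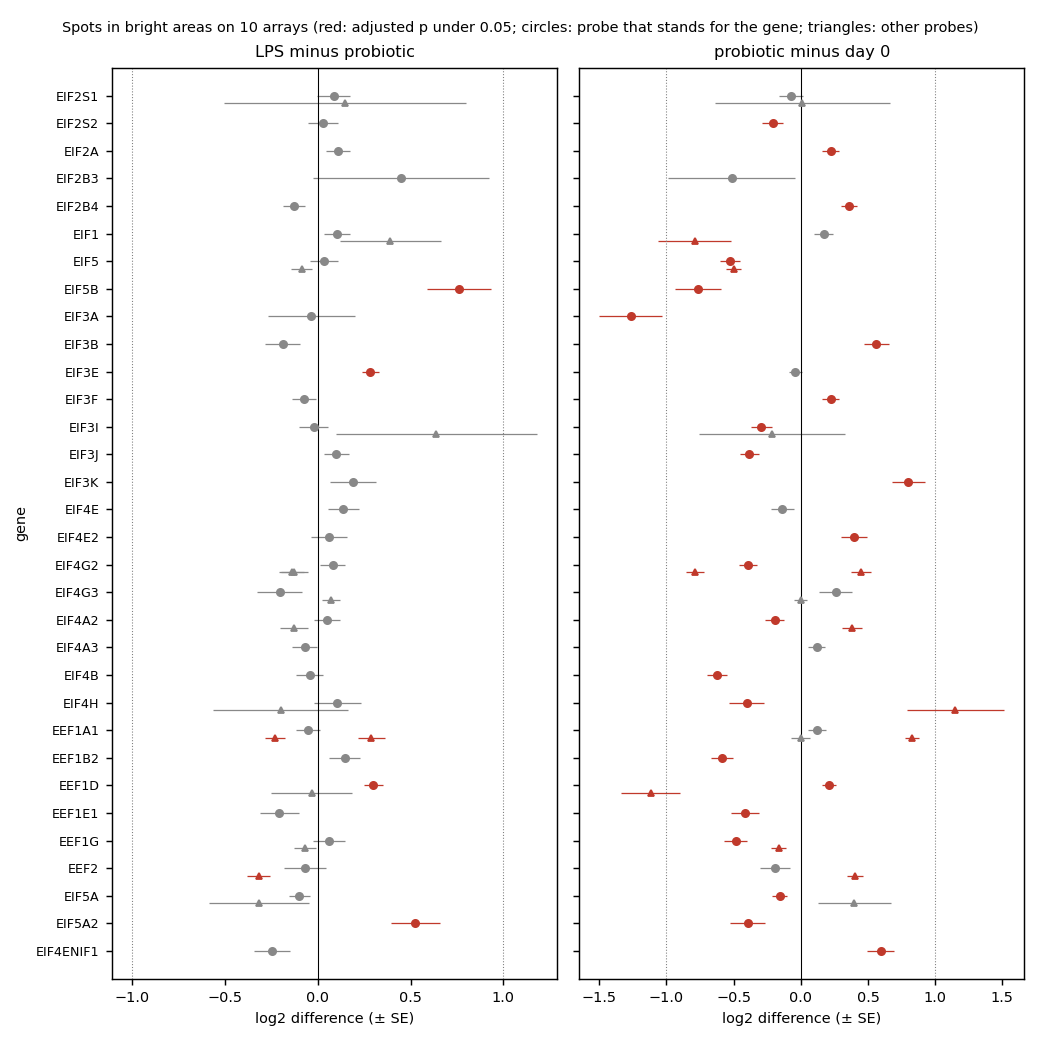
Log2 differences (± SE) of 47 factor probes in areas that were bright on 10 arrays, LPS minus probiotic (left) and probiotic minus day 0 (right). Circles are the probe that stands for a gene, triangles its other probes, red an adjusted p under 0.05, and dotted lines 2-fold. EIF3A is the 1 circle beyond 2-fold, on the right.

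LPS against probiotic compares blood of the same arm at day 60 with and without endotoxin, on slides that shared a scan day. Over all spots, 0 of 42 factor genes were higher and 0 lower, beside 0.342% higher and 0.0684% lower of all genes, and the medians were -0.11 and -0.08. In the bright areas of 7 arrays, 0 of 32 passed in either direction, beside 0.371% and 0.0169%. There the differences ran from -0.25 to 0.76 with a median of 0.05, and at an adjusted p under 0.05 alone 4 were higher and 0 lower, where 6.07% and 5.93% of all genes were. These were EIF5B at 0.76 ± 0.17, EIF5A2 at 0.53 ± 0.13, EEF1D at 0.30 ± 0.05 and EIF3E at 0.28 ± 0.05, with adjusted p of 0.010 to 0.038. EIF5B, with scaled log2 values of -3.02, -2.79 and -2.94 on the LPS arrays against -3.29, -4.03, -3.47 and -3.92 on the probiotic arrays, did not overlap between the groups. These counts rest on the probe that stands for each gene. Among the other probes, 1 of EEF2 was lower at that p (-0.32 ± 0.06, adjusted p = 0.015, limma). EEF1A1 had 1 lower at -0.23 ± 0.05 and 1 higher at 0.29 ± 0.07 (adjusted p = 0.029 and 0.035). Of the 28 partner genes, none passed; PPP1R15A, the stress-induced subunit of the eIF2 phosphatase, had the lowest adjusted p of the 28, 0.0074, at 0.77 ± 0.11. None of the 21 blood cell markers passed.

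EIF3G, the RNA-binding subunit of eIF3, had the largest LPS difference of the 42 genes. Its probe at row 335 read 629, 1937, 7433 and 64.7 units on the LPS arrays, against 14.9, 13.7, 13.2 and 5.80 on the probiotic arrays, 30.8, 1.80, 16.5 and 39 on the untreated arrays and 16.3, 10.9, 7.5 and 144 on the day 0 arrays. The LPS and probiotic arrays did not overlap. All probiotic arrays lay at the floor, and the mean of the LPS arrays was 15.6-fold above it. The fitted difference of 3.96 ± 1.01 did not pass (adjusted p = 0.158, limma). It passed when LPS array 4 and day 0 array 4 were left out together (4.57, adjusted p = 0.0055), an alternative added after the data were seen, and with the software processed signal and normexp background (0.022 and 0.020). The share of neighbouring spots well above background around it was 20.8%, 32.1%, 54.7% and 28.3% on the LPS arrays, and 12.6%, 13.8%, 14.5% and 8.18% on the probiotic arrays. The signal and that share were both highest on LPS array 3. The EIF3G probe printed above, at row 155, read 4.60, 4.70, 9.4 and 3.00 units on the LPS arrays and 14.3, 5.20, 3.1 and 6.20 on the probiotic arrays, and was not well above background on any of these 8.

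Some further probes in nearby rows behaved alike, although a row alone does not fix a place on the array. EIF1 at row 340 read 2278, 18524, 31979 and 103 units on the LPS arrays and 75, 93.2, 67.3 and 128 on the probiotic arrays. EIF6 at row 338 read 512, 1591, 6439 and 65.1 units on the LPS arrays and 71.9, 55.7, 30.8 and 56.5 on the probiotic arrays. The EIF3CL probe at row 332 read 591, 2063, 5744 and 210 units on the LPS arrays and 31.7, 17.4, 14.8 and 13.6 on the probiotic arrays. Each of the 3 was highest on LPS array 3 and passed as higher (log2 differences of 5.63 ± 0.91, 3.77 ± 0.65 and 4.29 ± 0.52, adjusted p of 0.010, 0.015 and 0.00088), although none stood for its gene. They were the 3 factor probes, of 73, that passed in this comparison, where 0.467% of all probes passed as higher and 0.0409% as lower. All 3 lay in a bright area on 2 or 3 LPS arrays and on 0 probiotic arrays, and the brightest EIF1 probe, at row 67 in the rim, did not pass (-0.13 ± 0.29). PDCD4, an inhibitor of eIF4A and the 1 partner gene that passed over all spots (4.97 ± 0.60), was read at row 337. Among all 25 genes that were higher with LPS, 22 were read in a bright area on more LPS than probiotic arrays. The EIF3CL probe at row 320 shares 52 bases with the one at row 332, stands for the gene and did not behave alike. It read 59.9, 6864, 7766 and 979 units on the probiotic arrays and did not pass (-0.81 ± 1.24, adjusted p = 0.97, limma). EIF3CL is close in sequence to EIF3C, so its probes may read both.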

How the data were processed

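The scanner files were made with Agilent Feature Extraction 10.10.1.1, per the submitters' processing notes. Their intensity columns are spot signals after background subtraction, with no scaling between arrays, per the file headers. The authors also deposited 1 table of log2 averages per group, whose centring is not given in the sources used here; its column medians were 0.01 (LPS), 0.26 (probiotic), 0.42 (untreated) and -0.83 (day 0).

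The members and lists were chosen with earlier results of these data known. Control spots and software-flagged outlier spots were left out (317 values missing among 12214 kept probes), and no spot was saturated. Scaled signals were floored at the median over arrays of the lowest detected signal (log2 -6.92). All 16 arrays entered 1 linear model (limma 3.58.1, R 4.3.3; lmFit, then eBayes, two-sided), and figures were drawn with matplotlib 3.10.9. The fit was tested on simulated data. Where no array of a group detected a probe, the fold is a bound: the mean of the group that detected it, over the mean of the larger of each dim array's own value and its lowest detected signal. The bound concerns the dim readings and not the spread among arrays, and its fold holds under this scaling only. Alternatives changed the scaling, floor, filter, background and arrays used; normexp was run on the median spot signal. Named genes were EIF3G, core subunits of each factor, the 6 largest passing changes each way, probes detected on all arrays, and genes whose probes opposed each other; other genes were named to illustrate a count after their values were seen. Of the 58 symbols, 55 are current in the RefSeq gene table, 2 are older names and 1 was unmatched; genome positions are not given because no genome build is stated in the sources used here. The number of arrays limits the precision.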

Additional observations from a re-analysis of the deposited data

Results flagged for a closer look

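For 14 factor genes, the highest or lowest of the 4 arrays of a group was set against the others. In 22 of 53 gene and group combinations that array stood apart by Dixon's test. Its chance rate of about 1 in 20 does not hold where arrays sat at the floor. With all other arrays of a group at the floor, the ratio is 1 whatever the highest reads. This was so for EIF2S2 on untreated array 4, EIF3G on day 0 array 4 and EIF6 on day 0 array 1. Of the 22, 14 were on LPS array 4 or day 0 array 4, the 2 arrays of their groups that were dim over most of the surface.

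On LPS array 4 the scaled log2 value was the lowest of the group for EEF1A1 (-0.60), EEF1B2 (-2.23), EEF2 (-1.27), EIF2S2 (-3.62) and EIF4E (-5.84), and the highest for EIF5A (2.24) and EIF4A2 (1.29). On day 0 array 4 it was the lowest for EEF1A1 (1.13), EEF1B2 (-0.18), EEF2 (-1.11), EIF2S2 (-2.77) and EIF4E (-5.72), and the highest for EIF3G (-2.43) and EIF4A2 (0.98). On probiotic array 4 it was the highest for EEF1A1 (3.39) and EIF2S2 (-0.81).

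On the untreated arrays, single high values were EIF1 on array 2 (-5.92), EIF3A on array 2 (-2.15), EEF1B2 on array 3 (-3.30), EEF2 on array 4 (3.14) and EIF2S2 on array 4 (1.16). On day 0, EIF6 was high on array 1 (-6.17), with its other arrays at the floor.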

How the results depend on the processing

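Counts of factor genes that passed kept within 1.5 times of the reported value in 10 of 12 alternatives for probiotic against untreated (27 reported; range 7 to 34) and in 11 of 12 for untreated against day 0 (25 reported; 13 to 31). With the highest floor they were 17 and 13. Probiotic against day 0 (2 reported) gave 7 with median scaling, 5 with quantile normalization, 1 with cyclic loess, 22 with the software's processed signal, 0 without the filter on dim probes and 0 with the highest floor. In choices made after the data were seen it gave 1 in the bright areas of 10 arrays, 0 in those of 12, and 5 without LPS array 4 and day 0 array 4. LPS against probiotic (0 reported) gave 1 with the processed signal, 2 with normexp background and 1 without those 2 dim arrays. In the authors' deposited table of group averages, with no test, 7 genes were past 2-fold for probiotic against untreated (1 higher, 6 lower), 27 for probiotic against day 0 (12 and 15) and 32 for LPS against probiotic (5 and 27). Leaving out 1 array gave 22 to 28, 0 to 1, 0 to 0 and 18 to 29 genes for probiotic against untreated, probiotic against day 0, LPS against probiotic and untreated against day 0. With the replicate number as a block the counts were 27, 4, 0 and 28; same-numbered arrays correlated between -0.24 and 0.33 in their deviations, so they share only a number. The authors' deposited table had the opposite sign for 13 of the 23 genes higher and 1 of the 4 lower for probiotic against untreated, for 1 of the 2 lower for probiotic against day 0, and for 7 of the 21 lower and 1 of the 4 higher for untreated against day 0. Among named genes its differences for probiotic against untreated were -0.0166 (EIF4A3), 0.0788 (EIF4EBP1), -0.201 (EIF2S1), -0.8624 (EIF2S2), -0.0158 (EIF3B), -0.4718 (EIF4B), -0.339 (EIF5), -0.2055 (EIF5A), -0.1944 (EEF2) and -0.0042 (EIF2B4). For probiotic against day 0 it had 0.1994 (EIF3K), and for untreated against day 0 -0.0328 (EIF4EBP1), 1.3812 (EIF2S1), 0.5156 (EIF4B), 4.3022 (EIF5A) and 0.1196 (EIF2B4). Cyclic loess turned EIF4B (-0.5219), EIF5A (-2.0542) and EEF2 (-0.0675) for probiotic against untreated and EIF5A (1.602) and EEF1A1 (0.1239) for untreated against day 0, and normexp turned EIF3B (-1.2639) for probiotic against untreated. The processed signal turned EIF2B3 (-0.0594), EIF4EBP1 (-1.2031), EIF2S1 (0.2109) and EIF5A (3.0613) for untreated against day 0. The cause was not tested. Over its alternatives, the adjusted p of EIF3G for LPS ran from 0.0055 to 1. Detection outside the bright areas limits every comparison with the untreated arrays.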
